A study of Mus musculus with 8 samples.

Results

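The autosomal testis retrogenes described here are Pgk2, Pdha2, Cetn1, Cstf2t, Rpl10l, Rbmxl2, Utp14b, Tktl2 and Chmp1b. They were taken by gene symbol from a table of 38163 genes, and all 9 were found. All 9 were also among the 16702 genes that reached 1 FPKM (fragments per kilobase of transcript, scaled to the library's total) in at least 2 libraries, which was the filter for testing. Poly(A)-selected RNA of whole mouse testis was sequenced from 2 genotypes, wild type (WT) and Alkbh5 null (KO), the latter lacking an enzyme that removes N6-methyladenosine from RNA. The testes were taken at postnatal day 12 (P12), when leptotene and zygotene cells are the main spermatocytes, or at day 18 (P18), when pachytene and diplotene cells are. Each of the 4 groups held 2 libraries, 8 in all. The strain and the structure of the null allele are not given in the sources used here.

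A retrogene arises when a processed messenger RNA is copied back into DNA and inserted elsewhere in the genome, so its coding sequence is usually intronless. In male meiosis the X and Y chromosomes are packed into the sex body at pachytene and are transcriptionally silenced, a process called meiotic sex chromosome inactivation. Many X-linked housekeeping genes have an autosomal retrocopy that is transcribed in spermatocytes and spermatids, and the copy can supply the protein while the X-linked gene is silent. Pgk2 and Pdha2 are classical examples, and mouse Rpl10l, Utp14b and Cstf2t are required for normal spermatogenesis.

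Total counts ran from 58417668 to 71537841 per library. At P12 Alkbh5 was at 10.2 and 17.8 FPKM in the WT libraries and at 0.0563 and 0.0218 FPKM in the KO libraries. At P18 replicate 1 of each genotype went against its label: WT P18 replicate 1 held 0.00985 FPKM of Alkbh5, from 4 counts, and KO P18 replicate 1 held 17.9 FPKM. WT P18 replicate 2, at 9.06 FPKM, and KO P18 replicate 2, at 0.155 FPKM, followed their labels. The libraries are called by their labels throughout, and results are given with and without the 2 opposed libraries. The summed FPKM of 8 pachytene markers, among them Piwil1, Ybx2 and Ldhc, was 43.1 to 151.8 at P12, 151.2 in WT P18 replicate 1 and 165.9 in KO P18 replicate 2. It was 1739 in WT P18 replicate 2 and 2223 in KO P18 replicate 1, and all 8 markers were above their highest P12 value in both. The summed level of 7 Sertoli cell markers was 558.6 to 712.1 FPKM at P12, 408.3 FPKM in WT P18 replicate 2 and 276 FPKM in KO P18 replicate 1, and it was 775.2 and 690.3 FPKM in the other two P18 libraries. Of 7 spermatid markers, which summed to 3.39 to 5.11 FPKM at P12 and 5.72 to 9.13 FPKM at P18, Tnp1, Prm1, Prm2 and Acrv1 stayed below 1 FPKM in all 8 libraries. Tnp2 was at 0.396 FPKM or less at P12 and at 2.03 and 2.93 FPKM in WT P18 replicate 2 and KO P18 replicate 1. In both, 3 of the 7 (Tnp2, Prm2 and Spaca1) were above their highest P12 value. Spaca1 was at 2.012 to 2.903 FPKM at P12 and at 3.228 and 3.175 FPKM in these libraries. It was higher, at 5.133 and 4.985 FPKM, in WT P18 replicate 1 and KO P18 replicate 2. Tssk6 was at 0.403 to 1.26 FPKM over the 8 libraries. The part of these cell types in the retrogene levels was not tested. In whole testis, fewer cells of a type and less RNA per cell cannot be told apart. A list of 5 liver genes summed to 180.8 and 168.4 FPKM in the KO P18 libraries and to 0.858 FPKM or less in the others. This split did not follow that of the pachytene markers.

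Each of the 9 retrogenes has 1 coding exon in the GENCODE M21 annotation, against 5 to 15 in the X-linked gene it derives from. Their coding sequences were 68.1% (Rbmxl2 and Rbmx) to 84.7% (Rpl10l and Rpl10) identical to those of the X-linked genes. Tktl2 was compared with Tktl1 (76.0%) and Chmp1b with 2610002M06Rik (80.2%), because both were closer to these than to the autosomal relatives Tkt (66.8%) and Chmp1a (63.1%). The longest stretch shared without a difference was 32 bases, in Chmp1b, against reads of 150 bases. The start of the most similar pair is shown because it bears on how reads of a copy and its source are separated. Capitals mark the 13 bases that differ among the 90 coding bases from the start codon on, written 5′ to 3′ on the coding strand from the GENCODE M21 transcripts.
Rpl10l: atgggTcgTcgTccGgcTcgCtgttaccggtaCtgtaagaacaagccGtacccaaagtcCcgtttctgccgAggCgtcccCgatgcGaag
Rpl10: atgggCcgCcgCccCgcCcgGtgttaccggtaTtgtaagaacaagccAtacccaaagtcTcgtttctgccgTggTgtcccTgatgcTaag

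Already at P12 the retrogenes spanned a wide range of levels. The 7 members other than Pgk2 and Cetn1 were at 1 FPKM or more in all 4 P12 libraries. Rpl10l, which encodes a variant of a large-subunit ribosomal protein, was the most abundant at 37.7 to 59.4 FPKM and did not overlap any other member. Cstf2t, the variant of the RNA-binding subunit of the cleavage stimulation factor that helps form messenger RNA 3′ ends, had a P12 median of 16.3 FPKM. Chmp1b, a subunit of the membrane-cutting ESCRT-III complex, had a median of 14.7 FPKM and overlapped Cstf2t. Pdha2 (9.62 FPKM), Rbmxl2 (7.76 FPKM), Tktl2 (5.14 FPKM) and Utp14b (3.67 FPKM) followed, each overlapping its neighbour in this order. Cetn1 and Pgk2 formed a separate low pair with P12 medians of 0.603 and 0.115 FPKM. Their ranges overlapped each other and lay below those of all other members.

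At P18 most members were higher in 2 of the 4 libraries than in the other P18 libraries. In WT P18 replicate 2 and KO P18 replicate 1, 5 of the 9 retrogenes (Pgk2, Cetn1, Pdha2, Rpl10l and Rbmxl2) were each at least 2 times their highest P12 library, beside 12.9% of all tested genes. In the same libraries 7 of 9 were above their highest P12 value, beside 28.6% of all tested genes. Pgk2 passed the filter only through these 2 libraries, so the filter alone fixed that it stood above its P12 values there. In WT P18 replicate 1 and in KO P18 replicate 2 no member reached 2 times its highest P12 value, beside 2.72% and 3.06% of all tested genes. Pgk2 alone was higher in all 4 P18 libraries than in all 4 P12 libraries, beside 8.68% of all tested genes.

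**Figure D1:**
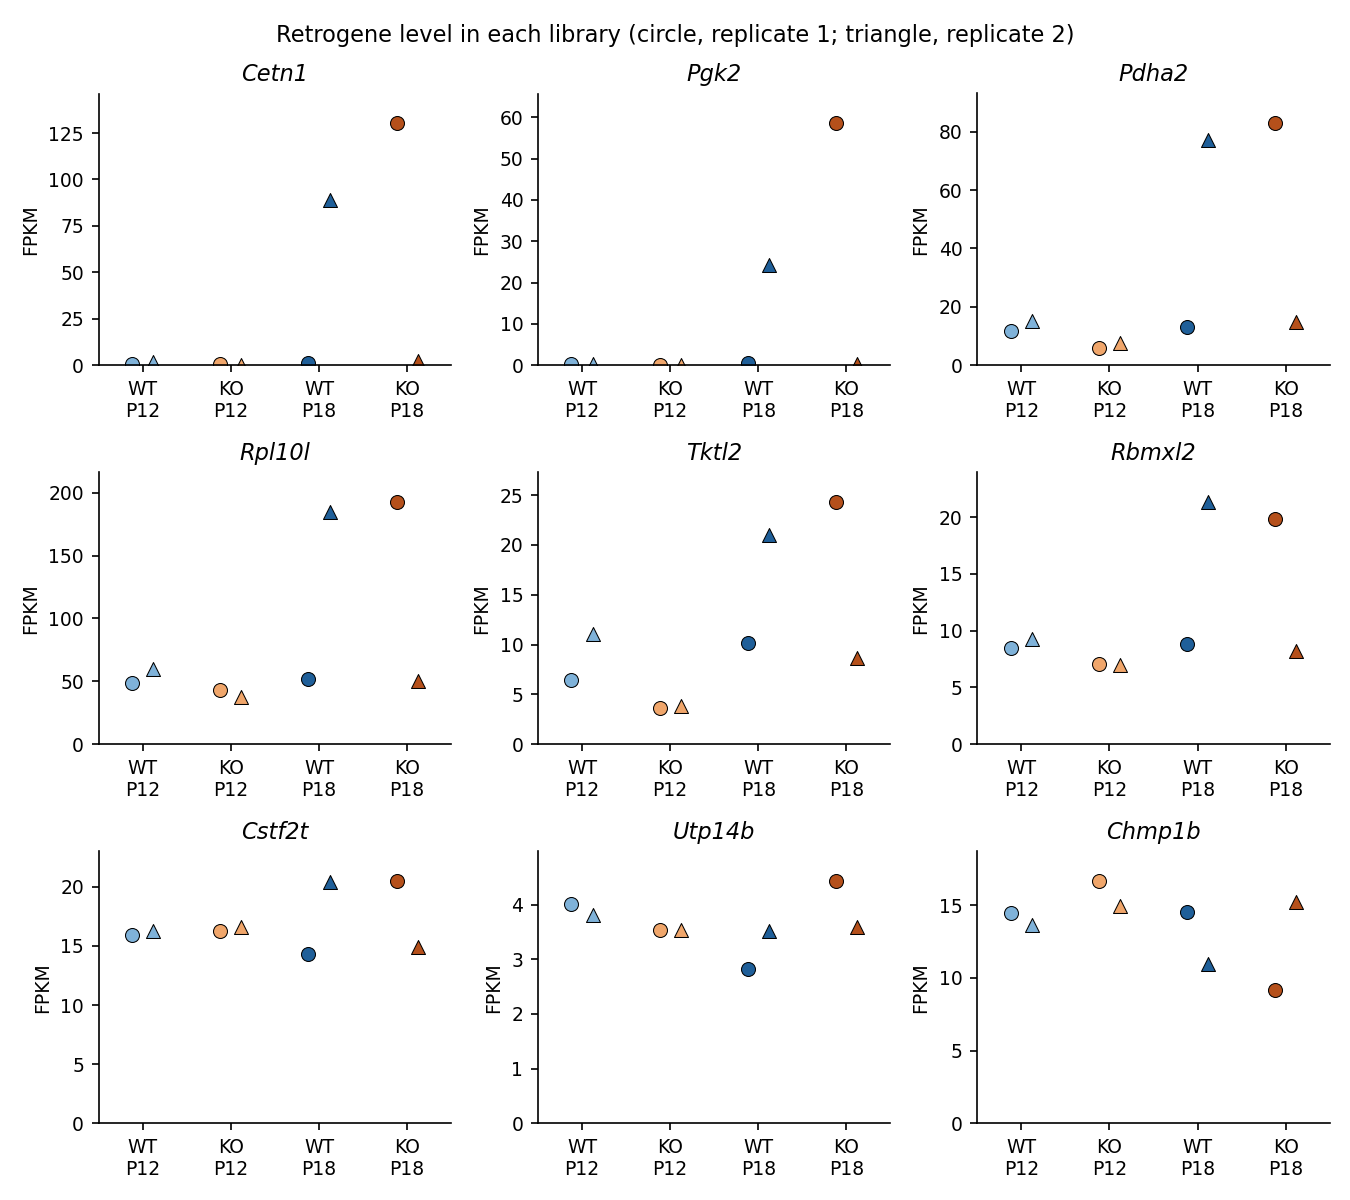
FPKM (vertical axes, linear and starting at 0) of the 9 retrogenes in each library, by genotype and age, with circles for replicate 1 and triangles for replicate 2. In Cetn1, Pgk2, Pdha2, Rpl10l, Tktl2 and Rbmxl2 the points of WT P18 replicate 2 and KO P18 replicate 1 stand above all others, while Chmp1b is lowest in these 2 libraries.

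Pgk2, on chromosome 17 (40207015 to 40208640, minus strand, GRCm38), encodes the phosphoglycerate kinase of the late germ line, an ATP-yielding enzyme of glycolysis. It was at 0.209 and 0.192 FPKM in the WT P12 libraries and at 0 and 0.0368 FPKM in the KO P12 libraries, which is 22, 20, 0 and 4 counts. At P18 it stood at 0.406 and 24.35 FPKM in WT and at 58.7 and 0.377 FPKM in KO, replicate 1 first in each case. The high libraries were 116.7 and 281.4 times the highest P12 library, and the low ones, at 45 and 47 counts, 1.95 and 1.81 times. Pgk2 was thus at 0.406 FPKM or less in 6 of the 8 libraries, and its 2 high libraries carried different labels.

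Cetn1 encodes a centrin, a calcium-binding protein of centrioles and of the base of cilia. It was at 0.817 and 1.84 FPKM in WT P12 and at 0.389 and 0.167 FPKM in KO P12. At P18 it was at 1.11 and 89.0 FPKM in WT and at 130.6 and 2.41 FPKM in KO. The ratios to the highest P12 library were 48.4 in WT P18 replicate 2 and 71.0 in KO P18 replicate 1, but 0.605 and 1.31 in the other two. Cetn1 thus stood below Pdha2 in every P12 library and above it in the 2 high libraries.

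Pdha2, on chromosome 3 (141210004 to 141212355, minus strand), encodes the germ-line form of the alpha subunit of pyruvate dehydrogenase, which feeds pyruvate into the citric acid cycle. Its levels were 11.6 and 15.3 FPKM in WT P12, 5.93 and 7.66 FPKM in KO P12, 13.25 and 77.3 FPKM in WT P18 and 83.15 and 14.9 FPKM in KO P18. Unlike Pgk2 it was well expressed at P12, and its high libraries were 5.06 and 5.44 times the highest P12 value.

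Rpl10l, on chromosome 12 (66283379 to 66284401, minus strand), was at 48.8 and 59.4 FPKM in WT P12 and at 43.4 and 37.7 FPKM in KO P12. At P18 it was at 51.7 and 185 FPKM in WT and at 193 and 50.6 FPKM in KO. Its high libraries were 3.11 and 3.25 times the highest P12 library, and it ranked 95 and 101 among all genes there. In both, its difference in FPKM from the highest P12 library was the largest of the 9, while its ratio was smaller than those of Pgk2, Cetn1 and Pdha2.

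Rbmxl2, on chromosome 7 (107209445 to 107210916, plus strand), encodes a nuclear RNA-binding protein that controls splicing in meiosis in the mouse. It was at 8.47 and 9.28 FPKM in WT P12, 7.06 and 6.96 FPKM in KO P12, 8.84 and 21.4 FPKM in WT P18 and 19.8 and 8.23 FPKM in KO P18. Tktl2, on chromosome 8 (66511756 to 66518335, plus strand), is related to transketolase, an enzyme of the pentose phosphate pathway. Its levels were 6.46 and 11.0 FPKM in WT P12, 3.59 and 3.82 FPKM in KO P12, 10.2 and 21.0 FPKM in WT P18 and 24.3 and 8.69 FPKM in KO P18. Rbmxl2 reached 2.30 and 2.14 times its highest P12 library, and Tktl2 reached 1.91 times in WT P18 replicate 2 and 2.21 times in KO P18 replicate 1. Tktl2 therefore lies just under the 2-fold line in 1 library, and Rbmxl2 just over it in both.

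The remaining 3 retrogenes were at 0.549 to 1.24 times their highest P12 library in WT P18 replicate 2 and KO P18 replicate 1. Cstf2t, on chromosome 19 (31082837 to 31087069, plus strand), was at 15.9 and 16.3 FPKM in WT P12, 16.3 and 16.6 FPKM in KO P12, 14.3 and 20.4 FPKM in WT P18 and 20.5 and 15.0 FPKM in KO P18. Its high libraries were 1.23 and 1.24 times the highest P12 library. Utp14b, on chromosome 1 (78658038 to 78671512, plus strand), encodes a factor of the complex that processes the small-subunit ribosomal RNA, and was at 4.004 and 3.815 FPKM in WT P12, 3.53 and 3.53 FPKM in KO P12, 2.81 and 3.52 FPKM in WT P18 and 4.44 and 3.60 FPKM in KO P18. Chmp1b, on chromosome 18 (67205366 to 67207889, plus strand), was at 14.5 and 13.6 FPKM in WT P12, 16.7 and 14.9 FPKM in KO P12, 14.6 and 11.0 FPKM in WT P18 and 9.16 and 15.3 FPKM in KO P18. Chmp1b was the one member below its lowest P12 value in both WT P18 replicate 2 and KO P18 replicate 1, beside 47.9% of all tested genes. It stood at 80.7% and 67.3% of that value.

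Some of these 3 loci share ground with other genes. Utp14b starts within Acsl3, an acyl-CoA synthetase gene on the same strand, and shares 244 exonic bases with it, so reads there cannot be assigned with certainty. Acsl3 itself was at 16.2 to 18.3 FPKM at P12. At P18 it was at 10.55 and 14.6 FPKM in WT replicates 1 and 2. In KO P18 replicates 1 and 2 it was at 16.8 and 13.0 FPKM. Among the P18 libraries WT replicate 1 was lowest and KO replicate 1 highest, as in Utp14b. WT P18 replicate 2 was above KO P18 replicate 2 in Acsl3 but below it in Utp14b. Over all libraries Acsl3 was highest in KO P12 replicate 2, and Utp14b in KO P18 replicate 1. Cstf2t lies within Prkg1, a protein kinase gene on the opposite strand at 0.686 to 2.56 FPKM, with no shared exonic base. Chmp1b lies within Gnal on the same strand with no shared exonic base, and shares 605 bases with the antisense gene AC140336.1, which never exceeded 0.0289 FPKM. Whether counting used the strand is not given in the sources used here.

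**Figure D2:**
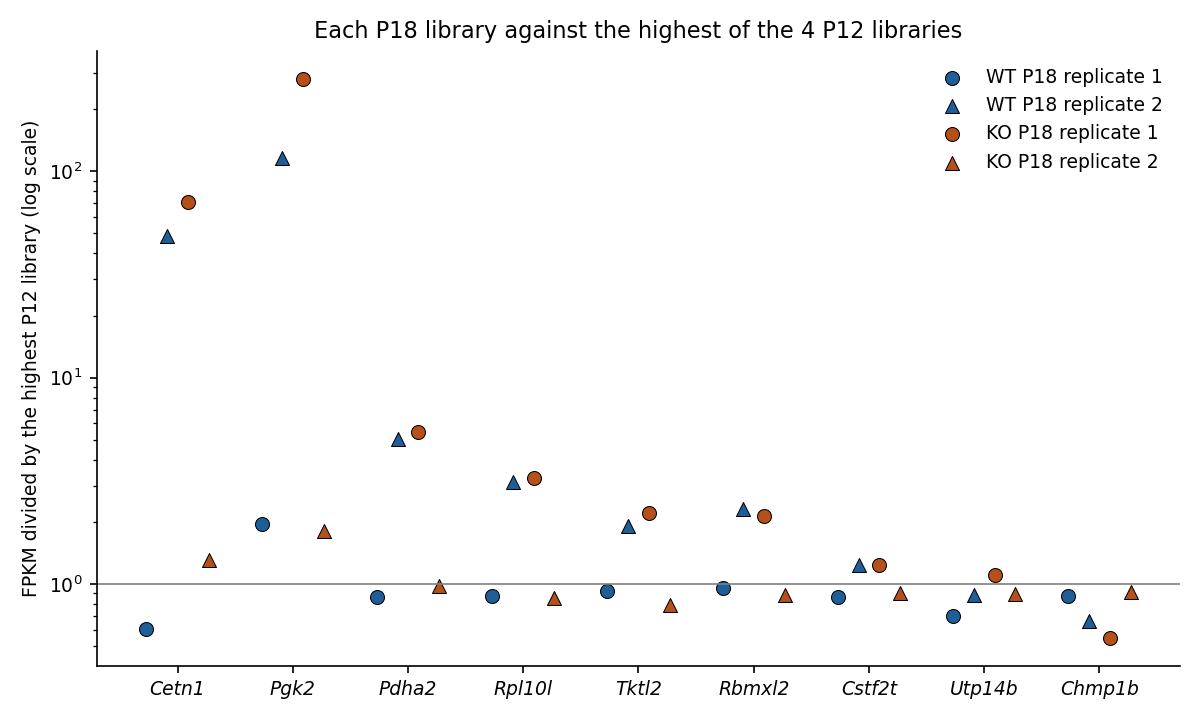
FPKM of each P18 library divided by the highest of the 4 P12 libraries (vertical axis, log scale) for the 9 retrogenes, with the line at 1 marking equality. The WT P18 replicate 2 and KO P18 replicate 1 points run from 116.7 and 281.4 in Pgk2 to 0.658 and 0.549 in Chmp1b, while the other P18 libraries stay between 0.605 and 1.95.

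The change with age was tested in a fit over all 8 libraries with 1 spread shared by the groups. The labels do not say whether the libraries of a group came from separate animals, so p-values measure only the spread between these libraries. With edgeR's quasi-likelihood test and Benjamini-Hochberg adjustment over 16702 genes, 4 genes (0.0239%) passed an adjusted p of 0.05 for P18 against P12 averaged over genotypes, and none was a retrogene. The estimated log2 fold changes were 8.50 ± 2.32 (SE, 4 libraries against 4) for Pgk2, 6.71 ± 1.94 for Cetn1, 2.54 ± 0.81 for Pdha2, 1.70 ± 0.49 for Tktl2, 1.58 ± 0.62 for Rpl10l and 1.09 ± 0.45 for Rbmxl2. Those of Cstf2t (0.28 ± 0.23), Utp14b (0.11 ± 0.19, and -0.05 with limma on the FPKM scale, where the median of all tested genes was -0.10) and Chmp1b (-0.13 ± 0.14) were near 0. The Pgk2 value rests partly on a P12 library with 0 counts and depends on the prior count added in the fit. The median over the 9 was 1.58, beside 0.04 over all tested genes. The edgeR adjusted p was 0.139 for Pgk2, Cetn1 and Tktl2, 0.143 for Pdha2, 0.163 for Rpl10l and 0.173 for Rbmxl2. Within the P18 groups, the higher library was 59.9 times the lower in WT and 155.9 times in KO for Pgk2, and 1.43 and 1.37 times for Cstf2t.

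The tool and the libraries decided how many members passed. DESeq2 on the same counts called Pgk2, Pdha2, Cetn1, Rpl10l and Tktl2 higher at P18, with 17.4% of all tested genes called higher. Without KO P18 replicate 2, edgeR called 6 members higher, beside 16.6% of all tested genes, and 4570 genes in either direction. Without the 2 P18 libraries opposed to their Alkbh5 label, edgeR called 7 of 9 members higher, with 25.1% of all tested genes called higher. That fit leaves 1 library in each P18 group, which is assumed to vary like the P12 libraries.

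Within the WT label, all 8 libraries gave 0 called genes by edgeR, with 1082 genes at an unadjusted p under 0.05, and DESeq2 called 408 genes (2.44%) and no retrogene. Without the opposed libraries the WT comparison sets WT P18 replicate 2 against the WT P12 pair, and edgeR called 7 of 9 retrogenes higher, beside 26.4% of all tested genes. Their log2 fold changes were 7.08 ± 0.44 for Pgk2, 6.24 ± 0.45 for Cetn1, 2.71 ± 0.19 for Pdha2, 1.96 ± 0.14 for Rpl10l, 1.45 ± 0.27 for Tktl2, 1.45 ± 0.14 for Rbmxl2 and 0.52 ± 0.08 for Cstf2t, each with its SE. Their edgeR adjusted p ran from 0.000206 for Pgk2 to 0.0078 for Tktl2. Utp14b (0.03 ± 0.12) and Chmp1b (-0.17 ± 0.13) were not called, with adjusted p of 0.85 and 0.333.

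Within the KO label, edgeR called 0 genes with all 8 libraries, with 3180 at an unadjusted p under 0.05, and DESeq2 called 2381 genes and 4 retrogenes, all higher, beside 10.6% of all tested genes called higher. Without the opposed libraries KO P18 replicate 2 was set against the KO P12 pair, and edgeR called 4 of 9 higher, beside 7.08% of all tested genes. These were Pgk2 (4.27 ± 0.71), Cetn1 (3.04 ± 0.54), Tktl2 (1.24 ± 0.27) and Pdha2 (1.14 ± 0.20), with adjusted p of 0.0233, 0.0263, 0.0437 and 0.0254. Rpl10l (0.33 ± 0.15, adjusted p = 0.196) and Rbmxl2 (0.24 ± 0.15, adjusted p = 0.327) did not pass there.

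**Figure D3:**
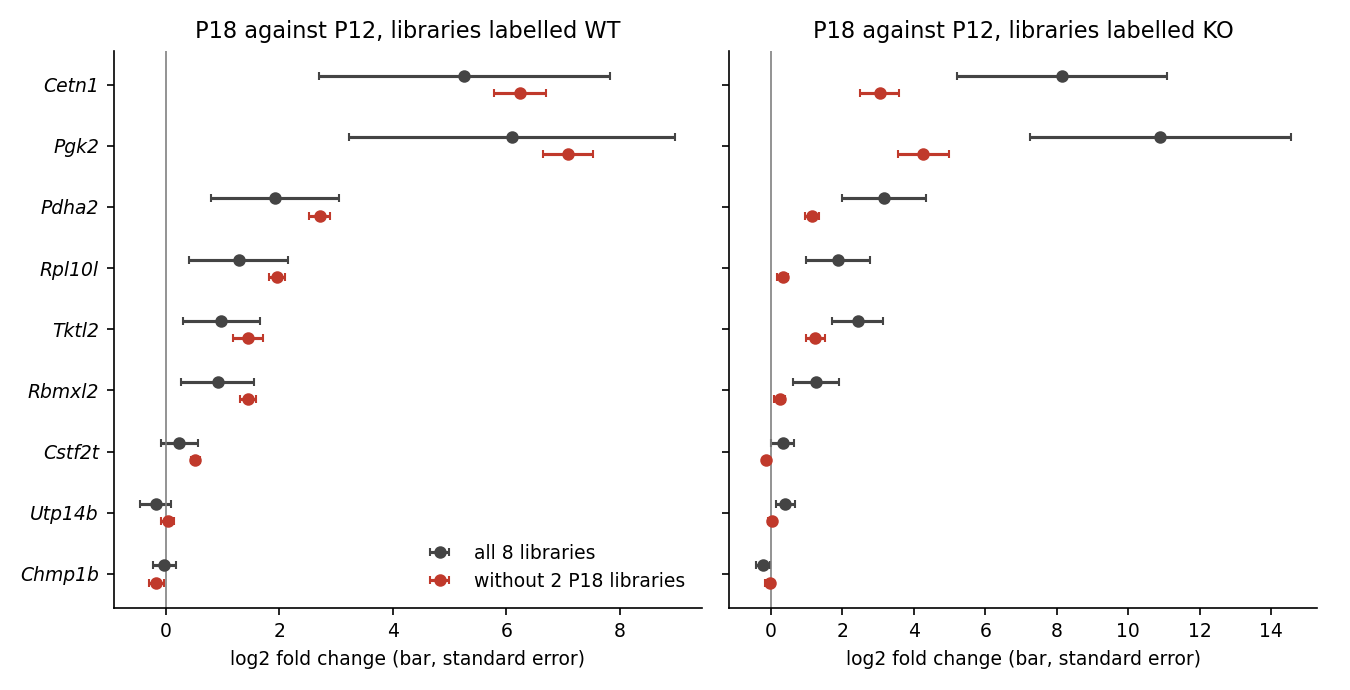
Log2 fold change of P18 against P12 (horizontal axes) with its standard error (bars) for the 9 retrogenes, from the libraries labelled WT (left) and KO (right), with all 8 libraries in grey and without the 2 P18 libraries opposed to their Alkbh5 label in red. Leaving these libraries out moved Pgk2 from 6.10 to 7.08 in WT and from 10.90 to 4.27 in KO, and shortened the bars.

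The X-linked source genes were lower in the same libraries. Pgk1, Pdha1, Cetn2, Cstf2, Rpl10, Rbmx, Utp14a, Tktl1 and 2610002M06Rik were all below their lowest P12 library in both WT P18 replicate 2 and KO P18 replicate 1. This held for 47.9% of all tested genes and for 83.2% of the 673 tested X-linked genes. In WT P18 replicate 2 they stood at 55.1% (2610002M06Rik) to 80.6% (Pgk1) of their lowest P12 library, and in KO P18 replicate 1 at 33.9% (Rpl10) to 60.1% (Pgk1). In WT P18 replicate 1 and KO P18 replicate 2, 5 and 4 of the 9 were below, beside 37.4% of the X-linked genes in each. The shares given beside the calls that follow are of all tested genes, and no share of X-linked genes was taken for them. With all 8 libraries edgeR called none of the 9, and without the opposed libraries it called 8 lower in WT, beside 18.6% of all tested genes, Pgk1 being the exception (-0.26 ± 0.13, adjusted p = 0.141). In KO the same fit called 1 of the 9 lower, Rpl10 (-0.70 ± 0.12, adjusted p = 0.024), beside 3.74% of all tested genes, and the median over the 9 was -0.10.

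Set against its source, each retrogene took a larger part of the pair in the 2 high libraries. For Pdha2, its share of the summed FPKM of Pdha2 and Pdha1 was 48.1% and 52.4% in WT P12 and 30.2% and 37.55% in KO P12, and it was 91.0% in WT P18 replicate 2 and 93.6% in KO P18 replicate 1. For Pgk2 the share was at most 0.771% at P12 and reached 52.95% and 78.4%, so Pgk1, at 21.6 and 16.1 FPKM, still made up much of the pair. For Rpl10l it was 19.0% to 28.1% at P12 and then 69.3% and 79.8%.
Cstf2t moved from between 54.7% and 57.0% at P12 to 73.3% and 78.7%, although its own level changed little, with Cstf2 at 12.3 to 13.7 FPKM at P12 and at 7.41 and 5.55 FPKM in these libraries. Utp14b went from between 29.6% and 36.8% to 43.7% and 54.4% in the same way. Chmp1b was the least moved, at 70.3% to 73.4% at P12 and 77.9% and 74.1% in these 2 libraries, with both genes of its pair lower there than at P12.

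**Figure D4:**
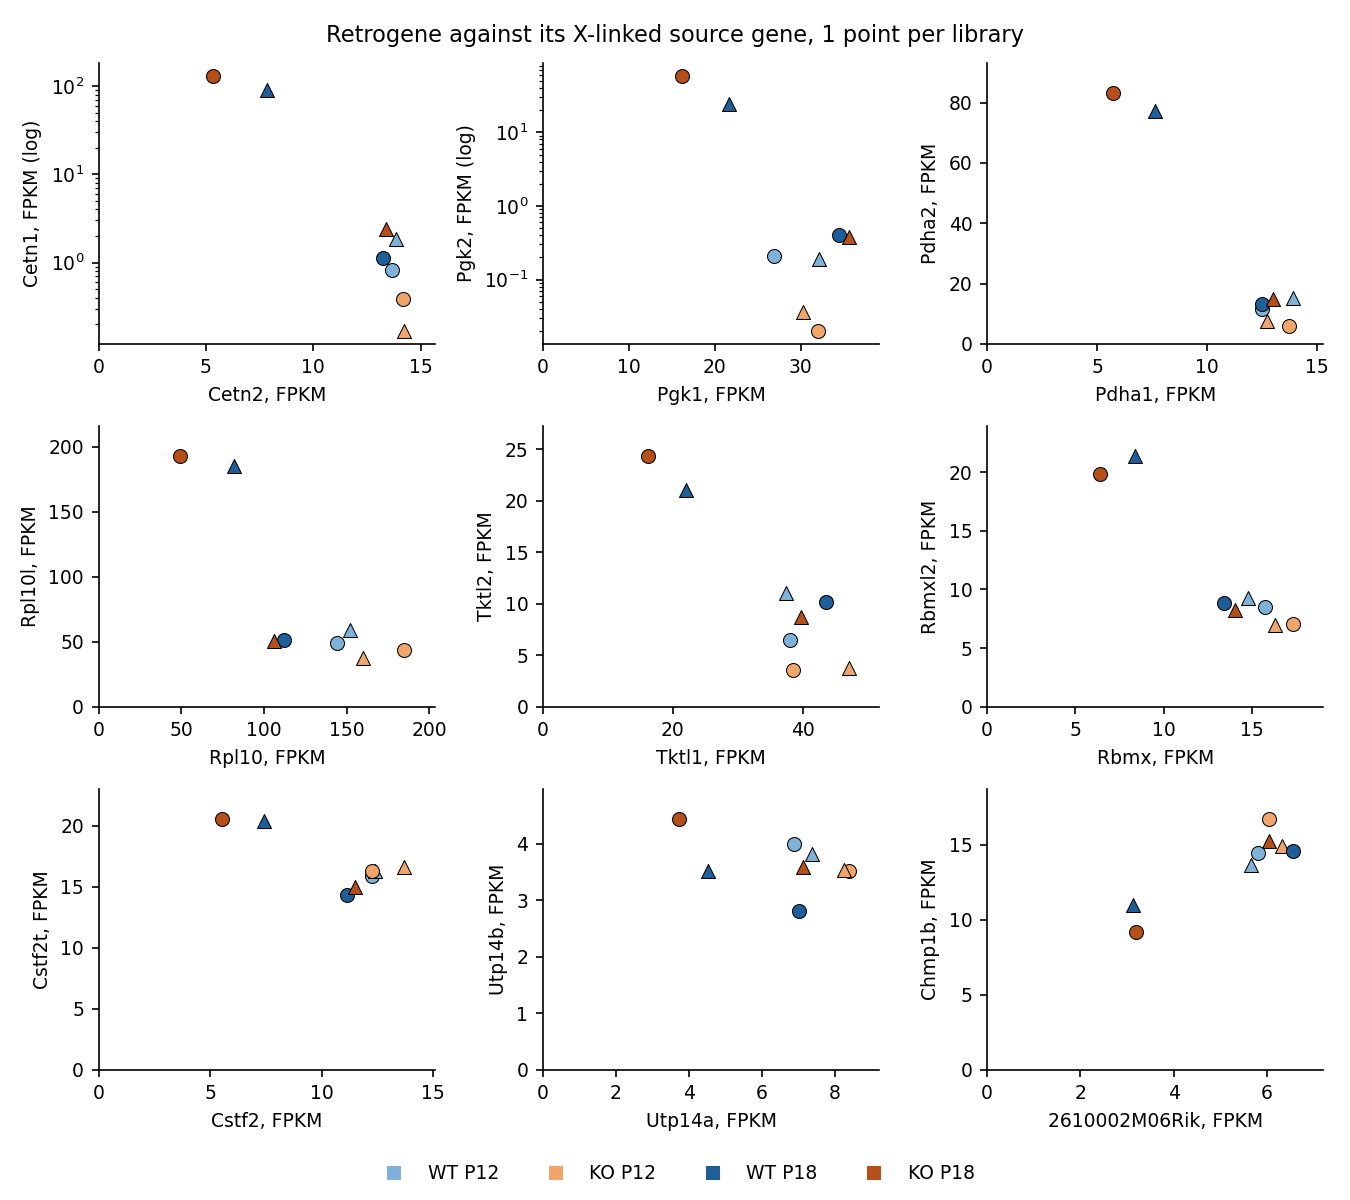
FPKM of each retrogene (vertical axes, log scale where marked, otherwise from 0; a 0 is drawn at 0.02) against FPKM of its X-linked source gene (horizontal axes), 1 point per library, circles for replicate 1 and triangles for replicate 2. In all panels WT P18 replicate 2 and KO P18 replicate 1 lie to the left of the other 6 libraries, and in the first 7 they also lie above them.

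At P12, where the Alkbh5 levels followed the labels, 7 of the 9 retrogenes were lower in both KO libraries than in both WT libraries, beside 24.0% of all tested genes. The KO mean was 9.19% of the WT mean for Pgk2, 21.0% for Cetn1, 42.3% for Tktl2, 50.6% for Pdha2, 74.9% for Rpl10l, 79.0% for Rbmxl2 and 90.3% for Utp14b. For Pdha2 this was 6.79 ± 1.22 FPKM in KO and 13.4 ± 2.62 FPKM in WT (SD, n = 2 each). The Pgk2 percentage rests on 0 and 4 counts in KO and 22 and 20 counts in WT. Its log2 fold change for KO against WT at P12 ran from -7.40 to -0.24 over the fits run. Cstf2t (102.1%) and Chmp1b (112.7%) were higher in both KO libraries, beside 21.3% of all tested genes. No retrogene passed the edgeR test of KO against WT at P12, with all 8 libraries (0 genes called, 131 at an unadjusted p under 0.05) or with the 4 P12 libraries alone (9 genes called, 0.0539%). In the latter the smallest edgeR adjusted p was 0.101 for Pdha2 and 0.108 for Tktl2. With all 8 libraries DESeq2 called 11 genes (0.0659%) and no member. The 8 pachytene markers summed to 99.6 and 151.8 FPKM in WT P12 and to 43.1 and 52.6 FPKM in KO P12, with 7 of 8 lower in both KO libraries. The 7 leptotene and zygotene markers summed to 370.2 and 420.9 FPKM in WT P12 and to 210.9 and 283 FPKM in KO P12, with 7 of 7 lower in both. The 7 Sertoli markers summed to 589.9 and 558.6 FPKM in WT P12 and to 712.1 and 707.8 FPKM in KO P12, with 5 of 7 higher in both. The 7 spermatogonial markers summed to 262.6 and 249.1 FPKM in WT P12 and to 241.6 and 285.2 FPKM in KO P12. Of these, 0 were lower and 2 higher in both KO libraries. The 7 spermatid markers summed to 3.48 and 3.39 FPKM in WT P12 and to 4.29 and 5.11 FPKM in KO P12. Of these, 0 were lower and 4 higher in both KO libraries. The part of these cell types in the retrogene difference was not tested. Of the X-linked source genes 6 of 9 were higher in both KO libraries at P12, beside 35.1% of X-linked genes.

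At P18 the genotype groups could not be separated for most members. In 8 of 9 the WT and KO libraries overlapped, and in Utp14b both KO libraries (4.44 and 3.60 FPKM) were above both WT libraries (2.81 and 3.52 FPKM), beside 10.1% of all tested genes whose groups did not overlap. With all 8 libraries edgeR called 0 genes for KO against WT at P18 (189 at an unadjusted p under 0.05) and 0 for the interaction of genotype and age (160), while DESeq2 called 76 (0.455%) and 45 genes (0.269%) with no member in either. Without the opposed libraries 1 library stood against 1, and edgeR called 7 members lower in KO at P18, beside 22.4% of all tested genes, and 5 members with a smaller change in KO for the interaction, beside 11.1%. The libraries compared there are KO P18 replicate 2 and WT P18 replicate 2, and Pgk2 stood at 0.377 and 24.35 FPKM in them, Pdha2 at 14.9 and 77.3 FPKM and Rpl10l at 50.6 and 185 FPKM. The opposed libraries gave the opposite order, with Pgk2 at 58.7 FPKM in KO and 0.406 FPKM in WT.

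A further list of 13 autosomal retrogenes of X-linked genes was described in the same way, and 11 passed the filter (G6pd2 and Ubl4b did not). In WT P18 replicate 2 and KO P18 replicate 1, 7 of the 11 were each at least 2 times their highest P12 library, beside 12.9% of all tested genes. The filter partly set this count. Fam50b and Gykl1 passed it only through these 2 libraries, and G6pd2 and Ubl4b, at 0.191 FPKM or less throughout, are not among the 11. The 3 with the largest estimated change with age were Fam50b (7.20 ± 1.99), Gykl1 (7.16 ± 1.88) and Gk2 (6.84 ± 1.85), each on the log2 scale with its SE and an edgeR adjusted p of 0.139. Gk2, a glycerol kinase, was at 0.121 to 1.79 FPKM at P12 and reached 69.7 and 116.5 FPKM, with 1.45 and 2.42 FPKM in the other P18 libraries. Fam50b went from at most 0.324 FPKM at P12 to 36.6 and 66.75 FPKM. Rps4l, a ribosomal protein copy with the highest level of the list, stayed between 141 and 167.3 FPKM in all libraries. Like the 9, the list thus held members many times above their P12 level in these 2 libraries and members close to it.

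Profiles were compared by the root mean square difference of centred log2(FPKM + 1) values over the 8 libraries. The comparison covered 9657 genes reaching 5 FPKM in any library, leaving out predicted, clone, Rik, pseudogene and mitochondrially encoded names. Among these, the genes most like each member were as follows. For Pgk2 they were Prdx6b (difference 0.0957), Rsph6a and Tcp10b, and for Cetn1 the retrogene Gk2 (0.153), Eid3 and Catsperz. Pdha2 was most like Taf7l2 (0.15), Psma8, the testis proteasome subunit, and Cox7b2. Rpl10l was most like Ift22 (0.0691), Izumo4 and Kiz, Rbmxl2 like Tmem8 (0.0721), Elmo3 and Exd1, and Tktl2 like Map10 (0.178), Efcab2 and Mir7223. For Cstf2t they were Pdhx (0.0298), Ppid and Rabl3, and for Chmp1b Rab4b (0.0458) and Atad1. Utp14b did not reach 5 FPKM and has no such list.

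The upstream sequences of the members differed in their content of CpG dinucleotides. RefSeq promoter windows (GRCm38.p6) were at hand for 7 members, and the 250 bases before the annotated start held 3 CpG in Pgk2, 4 in Pdha2, 8 in Rpl10l, 11 in Tktl2, 19 in Cstf2t, 23 in Rbmxl2 and 37 in Utp14b, beside a median of 6 over 32851 promoters. Pgk2 and Pdha2, the members with the fewest CpG, had the largest ratios of the 7 in WT P18 replicate 2 and KO P18 replicate 1, and Cstf2t and Utp14b the smallest. This order did not hold in WT P18 replicate 1, with Pdha2 at 0.867 and Rbmxl2 at 0.952, or in KO P18 replicate 2, with Tktl2 lowest at 0.788. The Utp14b window lies inside the deposited Utp14b gene and inside Acsl3, so it is not upstream of the gene as counted. Without the 31 bases that lie inside the deposited gene, the Pgk2 window held 2 CpG. No window was at hand for Cetn1, with ratios of 48.4 and 71.0 in the high libraries, or for Chmp1b, with 0.658 and 0.549. Rbmxl2, with 23 CpG, was above 2-fold in both high libraries. This is a description of 7 genes, with no test. Of other sequence features, the letters TGACGTCA of the cyclic AMP response element, searched on both strands, were in none of the 7 windows and in 1.55% of all promoters. The MYB motif, searched on both strands as TAACTG with C also allowed for its starting T and G for its other T, was in 1 of the 7 (Tktl2, at -29) and in 23.7% of all promoters, and TATAAA on either strand was in Pdha2 (at -44) and in 12.4%. A missing match says only that these letters are not in the window. Shown are the windows of Pgk2 and Pdha2, with the largest ratios of the 7. Those of Rbmxl2, just over 2-fold, and of Cstf2t, near its P12 level, are also shown. All are written 5′ to 3′ on the gene's strand, with CpG in capitals and without bases inside the deposited gene.
Pgk2, chr17:40208641-40208859, minus strand: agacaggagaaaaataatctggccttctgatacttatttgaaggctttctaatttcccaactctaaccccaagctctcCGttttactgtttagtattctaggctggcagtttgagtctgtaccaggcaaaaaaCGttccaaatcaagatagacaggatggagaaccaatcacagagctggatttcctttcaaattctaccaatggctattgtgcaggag
Pdha2, chr3:141212356-141212605, minus strand: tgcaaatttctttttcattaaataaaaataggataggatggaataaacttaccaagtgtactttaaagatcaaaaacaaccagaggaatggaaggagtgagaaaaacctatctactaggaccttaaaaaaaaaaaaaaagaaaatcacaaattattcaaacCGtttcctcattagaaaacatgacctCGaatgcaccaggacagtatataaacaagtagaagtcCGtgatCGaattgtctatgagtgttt
Rbmxl2, chr7:107209195-107209444, plus strand: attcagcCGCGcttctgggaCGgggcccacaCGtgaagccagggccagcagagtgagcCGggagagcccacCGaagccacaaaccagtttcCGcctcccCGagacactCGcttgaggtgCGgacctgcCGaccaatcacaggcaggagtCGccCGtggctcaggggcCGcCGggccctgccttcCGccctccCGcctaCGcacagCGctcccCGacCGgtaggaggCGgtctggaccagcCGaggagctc
Cstf2t, chr19:31082591-31082836, plus strand: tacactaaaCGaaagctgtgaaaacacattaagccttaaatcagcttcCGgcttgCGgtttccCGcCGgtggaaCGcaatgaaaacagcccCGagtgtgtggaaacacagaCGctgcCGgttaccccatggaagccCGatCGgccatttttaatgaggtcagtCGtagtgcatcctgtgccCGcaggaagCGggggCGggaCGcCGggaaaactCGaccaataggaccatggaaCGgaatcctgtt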

How the data were processed

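The table holds, per the file headers, a count and an FPKM value for each gene and library. The deposited counts are whole numbers that were used as they stand, and the deposited FPKM values are scaled to transcript length and library size. Reads were paired, of 150 bases each. Build GRCm38 and the tools StringTie 2.1.6, HISAT2 2.2.1 and cutadapt 1.9 are listed in the submitters' processing notes; the counting tool, annotation and strand setting are not given in the sources used here.

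Genes with at least 1 FPKM in at least 2 libraries were tested with edgeR 4.0.16 (R 4.3.3; TMM scaling, quasi-likelihood F-test, two-sided, Benjamini-Hochberg over 16702 genes, threshold 0.05), with 1 mean per group and no replicate block. DESeq2 1.42.0 and limma 3.58.1 on log2(FPKM + 1) were alternatives, with other scalings, filters and libraries left out. The edgeR, DESeq2 and limma steps were run on simulated counts with a smaller spread than the common dispersion of 0.226 estimated here. That run does not show how they perform on these libraries. Ratios are of FPKM. The SE of an edgeR fold change, also in the figure bars, is its absolute log2 value divided by the square root of the F statistic. Libraries of one group differed by more than sampling noise.

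The members and lists were chosen with earlier results of these data known. Named genes are the 9 members, their X-linked source and overlapping genes, the 3 other retrogenes with the highest level and the 3 with the largest change, the 3 genes most like each member in profile (1 of which is not reported here), Alkbh5 and germ-cell markers. Gene positions were matched to GENCODE M21.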

Additional observations from a re-analysis of the deposited data

How the results depend on the processing

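The edgeR count for P18 against P12 over both genotypes was 4 genes. It was 4227 with DESeq2 (5 retrogenes), 23 with limma on log2(FPKM + 1), 1 with limma on log2(FPKM + 0.1) and 7308 without the 2 opposed P18 libraries (7 retrogenes). Leaving out single libraries gave 0 to 4570 genes and 0 to 6 retrogenes, the highest without KO P18 replicate 2. For P18 against P12 in WT the main count of 0 became 408 with DESeq2 and 7507 without the opposed libraries (7 retrogenes). In KO the 0 became 2381 with DESeq2 (4 retrogenes), 31 and 4 with limma at pseudocounts of 1 and 0.1, 5 with no filter and 1806 without the opposed libraries (4 retrogenes). KO against WT at P12 went from 0 to 11 with DESeq2, 9 with the P12 libraries alone and 1 without the opposed libraries. KO against WT at P18 went from 0 to 76 with DESeq2, 27 and 2 with limma, and 6357 without the opposed libraries (7 retrogenes). The interaction went from 0 to 45 with DESeq2, 7 with limma on log2(FPKM + 1) and 2304 without the opposed libraries (5 retrogenes). The cause of these differences was not tested.

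With the replicate number as a block, the count for P18 against P12 over both genotypes was 0 genes, as in all other comparisons, and no retrogene was called. Over the 6 pairs of groups, deviations of same-numbered libraries correlated from -0.912 (WT and KO at P18) to 0.304 (WT at P12 and P18). The labels give the numbers no shared meaning and not every correlation exceeded 0.1, so they were not taken to pair the samples. A crossed pairing at P18, chosen after seeing the data, gave 52 genes for KO against WT.

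Directions were least stable for KO against WT at P18, where the log2 fold change of all 9 members took both signs over the alternatives (Pgk2 -6.16 to 6.50, Pdha2 -2.52 to 2.17, Rpl10l -2.01 to 1.51), as it did for 8 of 9 in the interaction. Over both genotypes Utp14b went from 0.11 to -0.05 and -0.06 with limma, and from -0.07 to 0.25 when single libraries were left out. In WT it went from -0.18 to 0.03 without the opposed libraries. Leaving out single libraries, the WT change ran from -0.21 to 6.24 for Cetn1, -0.13 to 0.52 for Cstf2t, -0.02 to 1.96 for Rpl10l, -0.43 to 0.03 for Utp14b and -0.17 to 0.10 for Chmp1b. In KO Cstf2t went from 0.33 to -0.13 without the opposed libraries, and ran from -0.13 to 0.67 when single libraries were left out. The other directions of the 9 members, in the 3 age comparisons and in KO against WT at P12, held under every alternative run.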
